A study of Mus musculus with 23 samples.

Results

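The EGR, NR4A and other immediate early genes described here are Egr1, Egr2, Egr3, Nr4a1, Nr4a2, Nr4a3, Arc, Ier2 and Ier3. They were taken by gene symbol from the deposited expression table, which named 19938 genes, and each of the 9 had 1 row of values, so that no choice between rows was needed. RNA of the ear pinna of female mice aged 4 weeks was hybridised to the Mouse Gene 1.0 ST platform of Affymetrix, 23 arrays in all. Wild-type mice were Rhbdf2+/+ of strain C57BL/6J, and cub mice were Rhbdf2cub/cub of strain B6.Cg-Rhbdf2cub/J. Rhbdf2 encodes iRhom2, a membrane protein that controls the ADAM17 sheddase, and the cub allele is present in every cell of the mutant animals. In the wounded groups a hole of 2 mm was made through the ear, and 15 min, 2 h or 24 h later a rim of 1 mm around it was cut out with a biopsy punch of 3 mm. The 0 h groups carried the treatment label "control" and no record of a hole or biopsy, so wounding and the piece of tissue taken cannot be told apart in comparisons with 0 h. Each of the 8 genotype-by-time groups had 3 arrays from biological replicates, except cub at 15 min, which had 2.

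Immediate early genes are transcribed within minutes of a stimulus from factors already present in the cell, mainly SRF with its ternary complex partners and the CREB family, and need no new protein. Egr1, Egr2 and Egr3 encode zinc-finger transcription factors, and Nr4a1, Nr4a2 and Nr4a3 encode orphan nuclear receptors whose activity is set mostly by their amount. Arc encodes a capsid-like protein best known at neuronal synapses and also found in migrating skin dendritic cells, Ier2 a small nuclear regulator, and Ier3 a stress protein that modulates ERK signalling and cell death. In skin, wounding and growth factor signals through ERK are classic inducers of this gene class.

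Values are deposited log2 RMA values, so a difference of 1 is a 2-fold change. Array medians lay between 6.37 and 6.46, and arrays of 1 group correlated at r from 0.9956 to 0.99847 over genes. The mean level of 8 keratinocyte markers was between 11.91 and 12.15 in all groups, so the skin label had its defining markers. Among the wild-type 0 h arrays, replicate 2 was the highest for 8 of the 9 genes, and among the wild-type 24 h arrays replicate 3 was the highest for 9 of 9. Where leaving out one of them changed a call, both values are given. In whole tissue, a change in the number of cells of a type and a change in RNA per cell cannot be told apart.

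The promoters of the NR4A genes are shown because these genes had the largest 2 h rises among the 9 and reached them together. RefSeq windows on GRCm38.p6 (250 bases before to 50 after the start) were at hand for 5 of the 9 genes: Egr2, Nr4a1, Nr4a2, Nr4a3 and Ier3. Below are the 250 bases before the start, 5′ to 3′ on the gene's strand, with each TGACG or its reverse complement in capitals. TGACG is the core of the cyclic AMP response element, which CREB factors bind. For Egr2, a shorter stretch is shown, from a CArG box (the SRF site, in capitals) to the next TGACG core. The windows lie at chr15:101266596-101266845 (plus strand) for Nr4a1, chr2:57124004-57124253 (minus strand) for Nr4a2, chr4:48045055-48045304 (plus strand) for Nr4a3 and chr10:67537797-67537818 (plus strand) for Egr2.
Nr4a1: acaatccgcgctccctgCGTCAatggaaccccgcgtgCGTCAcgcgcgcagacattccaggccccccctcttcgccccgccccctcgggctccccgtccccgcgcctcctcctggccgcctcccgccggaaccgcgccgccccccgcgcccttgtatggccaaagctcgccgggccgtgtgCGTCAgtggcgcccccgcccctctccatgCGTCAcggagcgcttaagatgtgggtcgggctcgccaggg
Nr4a2: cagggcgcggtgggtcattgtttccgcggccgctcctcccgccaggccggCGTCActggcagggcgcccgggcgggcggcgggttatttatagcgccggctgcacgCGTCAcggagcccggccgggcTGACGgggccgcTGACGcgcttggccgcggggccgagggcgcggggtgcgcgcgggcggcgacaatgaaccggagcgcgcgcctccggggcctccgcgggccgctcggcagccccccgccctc
Nr4a3: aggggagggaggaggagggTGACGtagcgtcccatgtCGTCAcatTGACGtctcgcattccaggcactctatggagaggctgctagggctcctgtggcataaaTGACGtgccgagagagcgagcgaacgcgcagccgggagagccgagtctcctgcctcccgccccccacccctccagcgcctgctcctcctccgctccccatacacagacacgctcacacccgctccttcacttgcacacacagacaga
Egr2: CCATATATGGgcagcgaCGTCA

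Each NR4A window held 4 TGACG cores. Over both strands of 32851 windows of 300 bases from 27025 genes, 20.8% held at least 1 such core and 0.231% held at least 4. Egr2 had 5 windows, of which those numbered 3, 4 and 5 overlapped and shared the same 2 cores and the same CArG box. Window 2 of Egr2 held a different CArG box and no core, and window 1 held neither motif. A CArG box was held by 1.63% of all windows. The single Ier3 window held neither. The full palindrome TGACGTCA, present in 1.79% of windows, and the EGR site GCGTGGGCG, present in 0.612%, were in none of the members' windows. Such matches describe letters only, and no binding was measured.

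All 3 NR4A genes differed from 0 h by less than the threshold at 15 min, stood about 8-fold to 10-fold above them at 2 h, and were lower again at 24 h, in both genotypes. Nr4a3 read 5.99, 6.34 and 6.14 in wild type at 0 h and 9.55, 9.52 and 9.50 at 2 h. In cub the Nr4a3 arrays were 6.34, 6.27 and 6.09 at 0 h and 9.67, 9.59 and 9.31 at 2 h. The groups at 0 h and 2 h were far apart in both genotypes. Nr4a3 rose by 3.37 ± 0.16 (SE; 10.31-fold) in wild type and by 3.29 ± 0.16 (9.78-fold) in cub, with adjusted p = 6.07e-12 and 1.16e-11 by limma with Benjamini-Hochberg adjustment over all genes. Its wild-type rise was the 3rd largest difference among the 19938 genes.

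Nr4a2 followed the same course. Its wild-type arrays were 7.20, 7.91 and 7.53 at 0 h and 10.75, 10.62 and 10.67 at 2 h, and its cub arrays were 7.60, 7.71 and 7.37 and then 10.57, 10.64 and 10.54. No array of one time reached those of the other. The rise was 3.13 ± 0.14 in wild type (8.78-fold, adjusted p = 4.74e-12) and 3.02 ± 0.14 in cub (8.13-fold, adjusted p = 5.21e-12).

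Nr4a1 had the widest spread between arrays of the 9 genes over all groups (residual SD 0.41). Wild type at 0 h read 8.04, 9.52 and 8.56, and at 2 h 11.93, 11.68 and 11.66; cub read 8.91, 8.34 and 8.23, then 11.48, 11.45 and 11.50. The 2 h arrays were tight and well above all 0 h arrays. Nr4a1 rose by 3.05 ± 0.29 in wild type (adjusted p = 2.19e-07) and by 2.98 ± 0.29 in cub (adjusted p = 2.38e-07).

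At 24 h the NR4A genes had separated from one another. In wild type Nr4a1 read 8.80, 9.09 and 9.67, which overlapped 0 h, with a difference of 0.48 ± 0.29 that missed the threshold (adjusted p = 0.201). Without wild-type 0 h replicate 2, the array at 9.52, that difference was 0.89 and was called (adjusted p = 0.00802). In cub the Nr4a1 arrays at 24 h were 9.19, 9.65 and 10.02, and the gene was above 0 h by 1.13 ± 0.29 (adjusted p = 0.00228). The difference between the genotypes in this change was 0.65 ± 0.40 and was not called (adjusted p = 0.615, interval −0.19 to 1.49). It was 0.24 without wild-type 0 h replicate 2, and from 0.45 to 0.98 with any other array of these groups left out. Nr4a3 remained further above its 0 h level than the other two: 8.30, 8.22 and 8.34 in wild type, a difference of 2.13 ± 0.16 (adjusted p = 5.49e-10), and 8.10, 8.38 and 8.87 in cub, a difference of 2.22 ± 0.16 (adjusted p = 1.92e-10). For Nr4a2 the differences were 1.05 ± 0.14 and 1.15 ± 0.14 (adjusted p = 2e-06 and 4.26e-07).

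**Figure D1:**
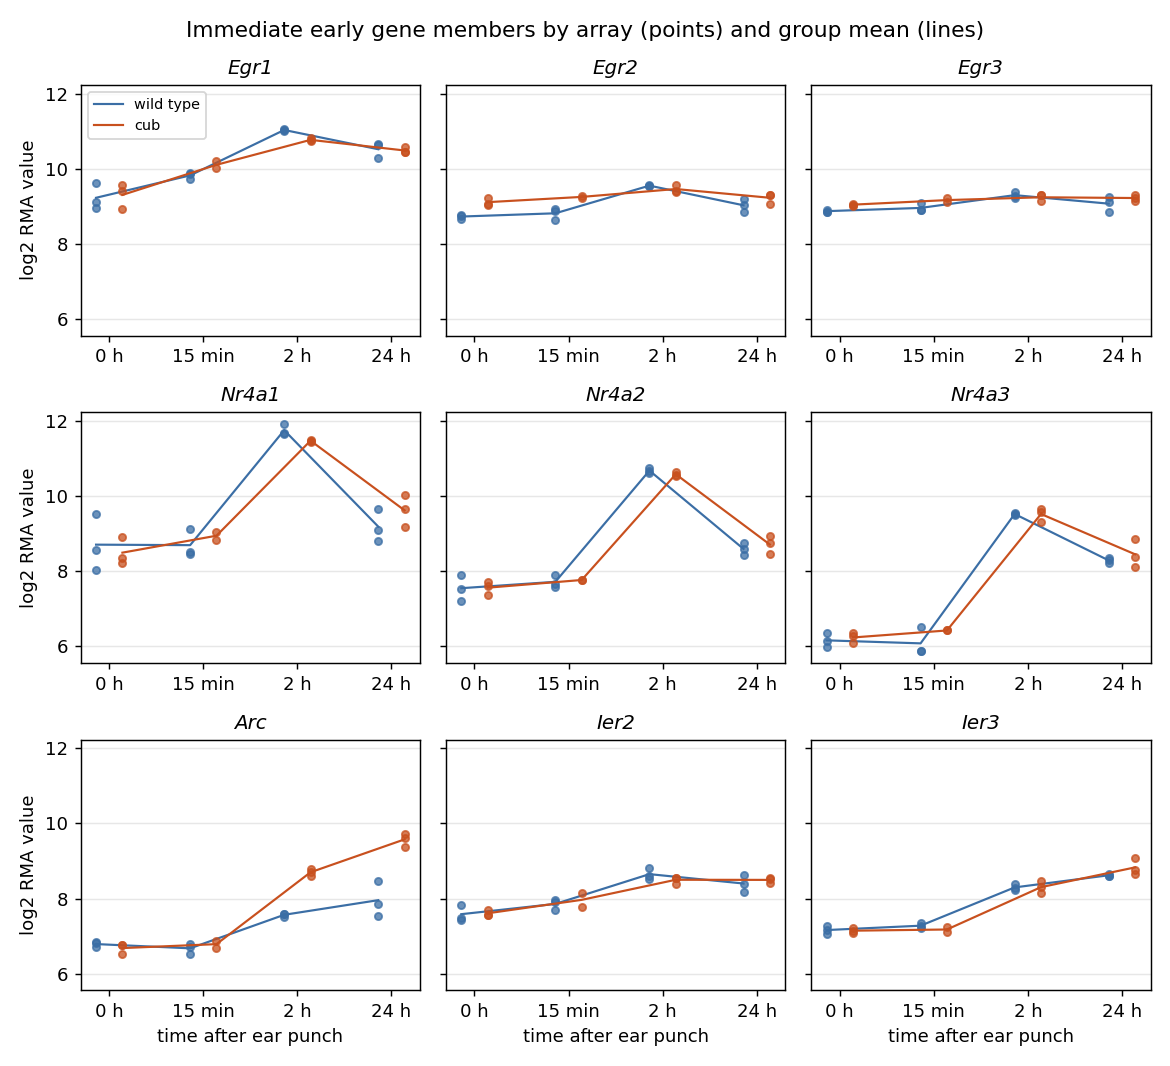
Log2 RMA value (y axis) of each of the 9 genes in each array against time after ear punch (x axis, 4 evenly spaced times, not to scale), with wild type in blue and cub in orange; points are arrays and lines join group means. The NR4A genes peak at 2 h in both genotypes, whereas Arc in cub climbs from 8.60 to 8.80 at 2 h to 9.38 to 9.73 at 24 h, above every wild-type array.

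Egr1, a factor that controls growth and matrix genes in wounded tissue, rose less than the NR4A genes and was still raised at 24 h. Its wild-type arrays were 8.95, 9.62 and 9.11 at 0 h, 11.01, 11.02 and 11.07 at 2 h, and 10.29, 10.62 and 10.65 at 24 h. In cub they were 9.57, 8.94 and 9.40, then 10.82, 10.76 and 10.73, then 10.44, 10.45 and 10.57. Every array at 2 h and 24 h was above every 0 h array. At 2 h Egr1 had risen by 1.81 ± 0.14 in wild type (3.50-fold, adjusted p = 1.61e-08) and by 1.47 ± 0.14 in cub (2.76-fold, adjusted p = 3.11e-07). At 24 h it was still above 0 h by 1.29 ± 0.14 and by 1.18 ± 0.14 (adjusted p = 1.62e-07 and 4.35e-07).

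Egr2, a regulator of Schwann cells and of T cell anergy, began from unequal levels. Wild type read 8.74, 8.78 and 8.66 at 0 h and 9.58, 9.53 and 9.54 at 2 h, while cub read 9.03, 9.23 and 9.07 and then 9.58, 9.38 and 9.42. The genotypes did not overlap at 0 h, and they did at 2 h. Egr2 rose by 0.82 ± 0.09 in wild type (adjusted p = 1.51e-06) and by 0.35 ± 0.09 in cub (adjusted p = 0.0108). The cub call was lost without cub 2 h replicate 1 (0.29, adjusted p = 0.0691) or without cub 0 h replicate 1 (0.31, adjusted p = 0.0577). The difference between these rises was −0.47 ± 0.12 with an unadjusted p of 0.00109, and it did not pass over all genes (adjusted p = 0.157). With estimated array weights it did (−0.46, adjusted p = 0.0358).

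Egr3, a close relative of Egr2 in muscle spindle and lymphocyte development, had the narrowest range of the 9 genes, with group means that spanned 0.43. Wild-type arrays were 8.86, 8.91 and 8.84 at 0 h and 9.28, 9.23 and 9.38 at 2 h, without overlap. In wild type it rose by 0.43 ± 0.08 (adjusted p = 0.0019). In cub, with 9.02, 9.04 and 9.07 at 0 h and 9.29, 9.30 and 9.13 at 2 h, the groups did not overlap either, and the difference of 0.20 ± 0.08 was not called (adjusted p = 0.138). At 24 h Egr2 was higher than 0 h in wild type by 0.30 ± 0.09 (adjusted p = 0.00804), a call lost without wild-type 24 h replicate 3 (0.22, adjusted p = 0.0685). Its difference in cub was 0.12 ± 0.09 (adjusted p = 0.321). For Egr3 the 24 h differences were 0.20 ± 0.08 in wild type (adjusted p = 0.0557) and 0.18 ± 0.08 in cub (adjusted p = 0.0884). Without wild-type 24 h replicate 1, the lowest of its group at 8.84, the wild-type Egr3 difference was 0.32 and was called (adjusted p = 0.00153). Of 16 alternative settings, 5 called the wild-type Egr3 difference, this one included, and 4 the cub one. With array weights both were called (0.23, adjusted p = 0.0145, and 0.20, adjusted p = 0.0292). In cub the Egr3 arrays at 24 h did not overlap those at 0 h.

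Ier2 and Ier3 both rose at 2 h, and Ier3 continued upward. Ier3 read 7.06, 7.27 and 7.15 in wild type at 0 h, 8.28, 8.22 and 8.39 at 2 h and 8.60, 8.60 and 8.66 at 24 h. In cub it read 7.22, 7.08 and 7.13, then 8.30, 8.46 and 8.15, then 8.76, 8.66 and 9.07. In each genotype the 3 times formed an ascending order with no overlap. The rise at 2 h was 1.14 ± 0.09 in wild type and 1.16 ± 0.09 in cub (adjusted p = 1.5e-08 and 9.4e-09), and at 24 h it was 1.46 ± 0.09 and 1.69 ± 0.09 (adjusted p = 2.28e-11 and 1.47e-12). Ier2 read 7.47, 7.84 and 7.44 in wild type at 0 h and 8.60, 8.53 and 8.82 at 2 h, and in cub 7.69, 7.56 and 7.57 and then 8.40, 8.55 and 8.55. Its arrays at 2 h were all above those at 0 h. Ier2 rose by 1.07 ± 0.12 in wild type (adjusted p = 2.65e-06) and by 0.89 ± 0.12 in cub (adjusted p = 2.14e-05), and at 24 h it was higher than at 0 h by 0.82 ± 0.12 and 0.89 ± 0.12 (adjusted p = 7e-06 and 1.78e-06).

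Counted together, 9 of the 9 genes were higher at 2 h than at 0 h in wild type and 0 lower, where 3.98% of all genes tested were called higher. In cub 8 of 9 were higher, all but Egr3, where 7.66% of all genes were. The median difference of the 9 genes was 1.14 in wild type and 1.47 in cub, beside −0.01 over all genes in each. At 24 h 7 of 9 were higher than 0 h in wild type, all but Egr3 and Nr4a1, beside 20.5% of all genes. In cub 7 of 9 were higher, all but Egr2 and Egr3, beside 21.1% of all genes. The medians at 24 h were 1.05 in wild type and 1.15 in cub. The 2 h and 24 h comparisons of a genotype share its 0 h arrays.

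**Figure D2:**
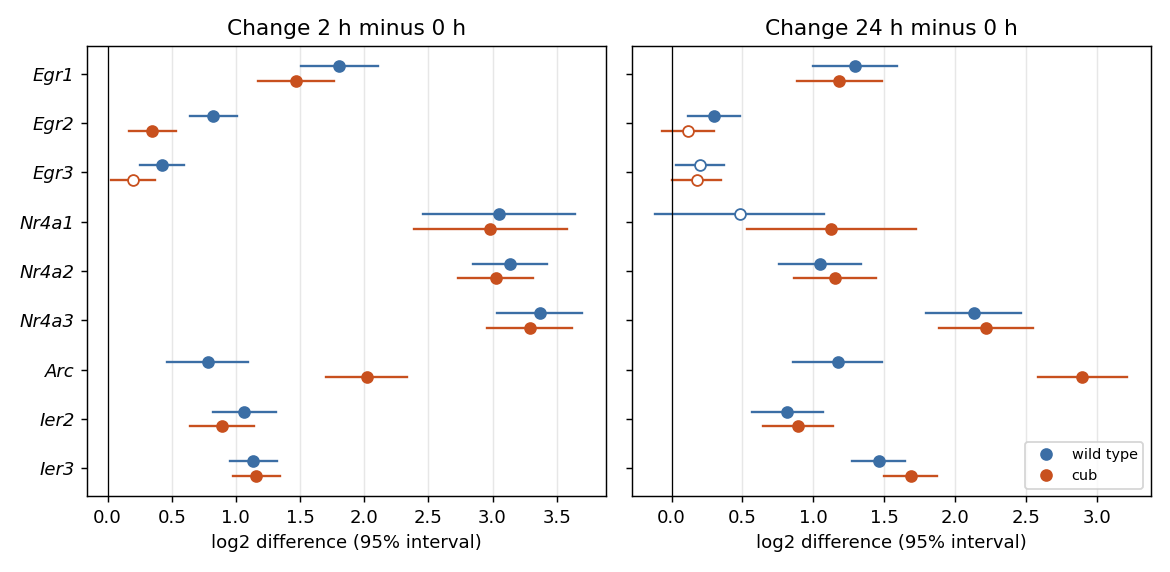
Log2 difference from 0 h (x axis) of each gene at 2 h (left) and 24 h (right) in wild type (blue) and cub (orange), with 95% intervals from limma; filled points passed an adjusted p of 0.05. The intervals of the genotypes are apart for Arc at both times (0.78 and 2.02 at 2 h, 1.17 and 2.90 at 24 h) and for Egr2 at 2 h (0.82 and 0.35), and they overlap for the rest.

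The comparisons between wounded times do not involve the 0 h tissue. From 15 min to 2 h, 9 of 9 genes rose in wild type, where 2.63% of all genes did. Of these, the Egr3 rise of 0.34 ± 0.08 (adjusted p = 0.0152) lost its call without wild-type 15 min replicate 2 (0.31, adjusted p = 0.076), 15 min replicate 3 (0.31, adjusted p = 0.0855) or 2 h replicate 3 (0.30, adjusted p = 0.0873). In cub 7 of 9 rose over the same interval, where 8.66% of all genes did, with Egr2 at 0.21 ± 0.10 (adjusted p = 0.139) and Egr3 at 0.08 ± 0.09 (adjusted p = 0.586). Among the 7, Egr1 (0.67 ± 0.16, adjusted p = 0.00766) and Ier2 (0.54 ± 0.13, adjusted p = 0.00954) were not called without cub 15 min replicate 3, which leaves 1 array at that time (0.57 and 0.34). The Egr1 call was also lost with array weights (0.64, adjusted p = 0.053).

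From 2 h to 24 h the genes went different ways. In wild type 6 of 9 fell, where 20.4% of all genes did, and Arc and Ier3 rose, where 21.1% of all genes did. Nr4a1 fell by 2.57 ± 0.29, Nr4a2 by 2.09 ± 0.14 and Nr4a3 by 1.24 ± 0.16 (adjusted p = 1.96e-07, 1.23e-10 and 1.61e-06). Egr1 fell by 0.51 ± 0.14 and Egr2 by 0.52 ± 0.09 (adjusted p = 0.00557 and 4.33e-05). Egr3 fell by 0.23 ± 0.08 (adjusted p = 0.0306), a call lost without wild-type 2 h replicate 1 (−0.24, adjusted p = 0.056), 2 h replicate 3 (−0.19, adjusted p = 0.125) or 24 h replicate 1 (−0.11, adjusted p = 0.274). It was also lost with only the arrays compared (adjusted p = 0.113). Ier2 was at −0.25 ± 0.12 (adjusted p = 0.104), and at −0.37 without wild-type 24 h replicate 3 (adjusted p = 0.023). In cub 4 of 9 fell, where 23.4% of all genes did, and again Arc and Ier3 rose, where 18.8% did. The 4 were Nr4a1 (fell by 1.86 ± 0.29), Nr4a2 (fell by 1.87 ± 0.14), Nr4a3 (fell by 1.07 ± 0.16) and Egr2, which fell by 0.23 ± 0.09 (adjusted p = 0.0377). The Egr2 call was lost without cub 2 h replicate 1 (−0.17, adjusted p = 0.178), 2 h replicate 3 (−0.25, adjusted p = 0.0529) or 24 h replicate 2 (−0.16, adjusted p = 0.204), and under 6 other settings. In cub Egr1 was at −0.28 ± 0.14 and was not called (adjusted p = 0.125), though its 2 h and 24 h arrays did not overlap. With only the arrays compared it was called (adjusted p = 0.00663). Ier3 rose by 0.32 ± 0.09 in wild type and by 0.53 ± 0.09 in cub (adjusted p = 0.00522 and 4.43e-05).

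At 15 min, 0 of 9 genes were called against 0 h in wild type and 0 of 9 in cub. Few genes of any kind were: 0.0351% of all genes were higher in wild type and 0.0201% in cub. At an unadjusted limma p under 0.05, Egr1 and Ier2 were higher in each genotype. The shares above are for adjusted p values, and the share of all genes at the unadjusted threshold was not counted. Egr1 read 9.89, 9.72 and 9.86 in wild type and 10.20 and 10.01 in cub, above every 0 h array of the same genotype. Its difference was 0.60 ± 0.14 in wild type (adjusted p = 0.146) and 0.80 ± 0.16 in cub (adjusted p = 0.086), the 5th largest of all genes there. Without wild-type 0 h replicate 2 the wild-type value was 0.79 (adjusted p = 0.0445), and without cub 0 h replicate 1 the cub value was 0.94 (adjusted p = 0.0428). When both genotypes were averaged, a comparison chosen after these values were seen, Egr1 was higher at 15 min by 0.70 ± 0.11 (adjusted p = 0.00779), the only one of the 9 genes called, where 0.206% of all genes were. Ier2 was at 0.32 ± 0.09 in that average (adjusted p = 0.118), and Arc at 0.00 ± 0.11 (adjusted p = 0.99). The Ier2 arrays at 15 min were 7.92, 7.70 and 7.95 in wild type and 8.16 and 7.77 in cub, so that the lowest wild-type array lay within the 0 h range and no cub array did. All 3 NR4A genes overlapped their 0 h arrays in wild type. In cub Nr4a1 did, while Nr4a2 and Nr4a3 lay above theirs without being called (adjusted p = 0.541 and 0.637). Nr4a1 read 9.12, 8.45 and 8.51 in wild type and 9.05 and 8.84 in cub, and Nr4a2 7.91, 7.66 and 7.58 and then 7.77 and 7.76. Nr4a3 read 6.50, 5.86 and 5.87 in wild type and 6.42 in both cub arrays.

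Arc was the gene in which the genotypes parted. Before wounding it read 6.85, 6.81 and 6.70 in wild type and 6.76, 6.52 and 6.76 in cub, and at 15 min 6.79, 6.51 and 6.72 and then 6.69 and 6.88. The genotypes overlapped at both times. At 2 h wild type read 7.58, 7.52 and 7.60 and cub 8.80, 8.70 and 8.60. At 24 h wild type read 7.54, 7.85 and 8.48 and cub 9.62, 9.38 and 9.73. Cub was above wild type in every array at both times. The order of the group means was cub at 24 h (9.58 ± 0.18, SD, n = 3), cub at 2 h (8.70 ± 0.10, n = 3), wild type at 24 h (7.96 ± 0.48, n = 3), wild type at 2 h (7.57 ± 0.04, n = 3) and then the 4 groups at 0 h and 15 min, between 6.67 and 6.79. The cub 2 h arrays lay above all wild-type 24 h arrays, the 2 wounded wild-type groups at 2 h and 24 h overlapped, and the 4 lowest groups overlapped with one another.

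Arc was higher in cub than in wild type by 1.13 ± 0.15 at 2 h (2.19-fold, adjusted p = 0.000164) and by 1.62 ± 0.15 at 24 h (3.07-fold, adjusted p = 1.63e-06), the 9th and the 2nd largest genotype differences of all genes at those times. It rose in wild type by 0.78 ± 0.15 at 2 h (adjusted p = 0.00194) and 1.17 ± 0.15 at 24 h (adjusted p = 1.34e-06), and in cub by 2.02 ± 0.15 (adjusted p = 6.84e-09) and 2.90 ± 0.15 (7.45-fold, adjusted p = 1.1e-12). At 2 h the wounding change of Arc in cub exceeded that in wild type by 1.24 ± 0.21 (adjusted p = 0.0268), and at 24 h the excess was 1.73 ± 0.21 (adjusted p = 0.000305). At each of these times Arc was the only one of the 9 genes with a called difference in wounding change, where 0.105% of all genes at 2 h and 0.256% at 24 h had a larger change in cub. At 15 min no gene did, a share of 0%, and none of the 9 had an unadjusted p under 0.05. The 24 h call held under every setting tried. The 2 h call was lost under 10 settings, with values between 1.16 and 1.29. These were the leaving out of wild-type 2 h replicate 1 (1.25, adjusted p = 0.0532), 2 (1.22, adjusted p = 0.0608) or 3 (1.26, adjusted p = 0.0638), cub 2 h replicate 1 (1.19, adjusted p = 0.105) or 3 (1.29, adjusted p = 0.0519), wild-type 0 h replicate 2 (1.23, adjusted p = 0.0788) or 3 (1.28, adjusted p = 0.0822) and cub 0 h replicate 2 (1.16, adjusted p = 0.0616), a test of every row (adjusted p = 0.0762) and no variance moderation (adjusted p = 0.104).

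Between 2 h and 24 h Arc rose by a further 0.88 ± 0.15 in cub (adjusted p = 5.18e-05). In wild type the rise of 0.39 ± 0.15 (adjusted p = 0.0425) rested on replicate 3 at 24 h, the array at 8.48, without which it was 0.13 (adjusted p = 0.425). It was also lost without wild-type 2 h replicate 1 (0.40, adjusted p = 0.0792), 2 (0.37, adjusted p = 0.109) or 3 (0.41, adjusted p = 0.0686), with median centring (0.39, adjusted p = 0.0518) or quantile normalization (0.35, adjusted p = 0.0693), and with every row tested (adjusted p = 0.077), only the arrays compared (adjusted p = 0.151) or no moderation (adjusted p = 0.0849).

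Because wound tissue takes in blood cells, marker levels were set beside Arc. The mean log2 level of 8 neutrophil markers was 5.54 in wild type and 5.50 in cub at 0 h. At 2 h it was 6.43 in wild type and from 6.82 to 7.11 in the cub arrays, and at 24 h it was 8.75 and 9.15. Of the 8, 3 were higher in cub at 2 h (Mmp8 by 1.11, Retnlg by 0.84 and Csf3r by 0.66) and 2 at 24 h (Mmp8 by 0.63 and Csf3r by 0.62). The cub 2 h arrays had more Arc than the wild-type 24 h arrays and lower neutrophil levels, at 6.82 to 7.11 against at least 8.46. Those groups differ in both genotype and time, so this contrast cannot tell genotype, time and cell content apart. Within each time, at 2 h and at 24 h, the mean neutrophil level was higher in cub. Among the wild-type 24 h arrays, replicate 3 had the most Arc (8.48) and the lowest neutrophil (8.46) and macrophage (8.82) levels. The cub 24 h arrays went the other way: replicate 3 had the most Arc (9.73) and the highest neutrophil (9.31) and macrophage (9.42) levels. The mean level of 8 macrophage markers was 8.29 in wild type and 8.86 in cub at 2 h, with 6 of the 8 higher in cub (Mrc1, the largest, by 0.83), and 9.04 and 9.20 at 24 h, with 0 of 8 called by limma and 1 higher at an unadjusted p under 0.05. For 9 Langerhans and dendritic cell markers the levels were 8.62 and 8.79 at 2 h, with 1 of 9 higher in cub (Fscn1 by 0.44), and 8.77 and 8.81 at 24 h, with 0 of 9 called by limma and 1 higher and 1 lower at an unadjusted p under 0.05. The level of 8 neuron markers stayed between 5.52 and 5.61 at 0 h, 2 h and 24 h in both genotypes; 1 of the 8, Stmn2, was higher in cub at 2 h (by 0.68). Markers of the tissue's own cells moved with genotype as well. Of 7 fibroblast markers, 5 were higher in cub at 2 h and 3 at 24 h (Col3a1, the largest, by 0.69 and 0.58), with mean levels of 11.07 in wild type and 11.51 in cub at 2 h and 10.78 and 11.11 at 24 h. Of 6 endothelial cell markers, 5 were higher in cub at 2 h (Emcn, the largest, by 0.56) and 1 at 24 h (Tek by 0.29), with mean levels of 8.23 and 8.58 and then 8.33 and 8.45. Of 8 keratinocyte markers, Krt1 was higher in cub at both times (by 0.76 and 0.43), and Krt15, a keratin of basal cells, was lower at 24 h (−1.08). At 24 h 2 of 8 skeletal muscle markers were higher in cub, Acta1 by 0.34 and Atp2a1 by 0.29. Of 7 T cell markers, 1 was higher at each time, Thy1 at 2 h by 0.38 and Cd2 at 24 h by 0.33. Of 5 hair follicle inner sheath markers, 0 were called at 2 h or 24 h. At 2 h all 5 were higher in cub at an unadjusted limma p under 0.05 (Krt25, the largest, by 1.19). Their mean levels were 6.01 in wild type and 6.65 in cub at 2 h, and 6.11 and 6.17 at 24 h. Of all genes, 3.84% were called higher in cub at 2 h and 2.24% at 24 h, and 0.577% and 3.44% were called lower. For the unadjusted marker counts the share of all genes was not counted. The part of these cells in the Arc result was not tested.

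**Figure D3:**
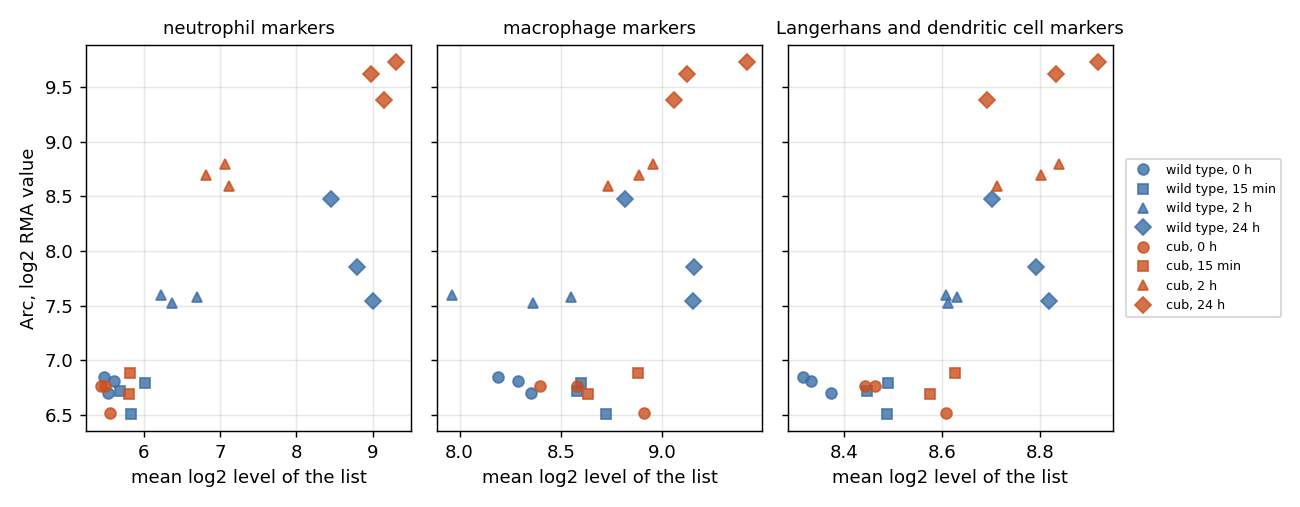
Arc log2 value (y axis) against the mean log2 level of the neutrophil, macrophage, and Langerhans and dendritic cell marker lists (x axes) in each of the 23 arrays, by genotype (colour) and time (marker shape). At 24 h the cub arrays (Arc 9.38 to 9.73) stand above the wild-type arrays (7.54 to 8.48). The mean neutrophil level at 24 h is also higher in cub (9.15) than in wild type (8.75), with overlap between the arrays.

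Apart from Arc, 1 gene was called between genotypes, Egr2, before wounding and at 15 min. At 0 h Egr2 was higher in cub by 0.38 ± 0.09 (adjusted p = 0.0133), 1 of the 9 genes called, where 3.33% of all genes were higher. The call was lost without wild-type 0 h replicate 3 (0.35, adjusted p = 0.0631) or cub 0 h replicate 2 (0.32, adjusted p = 0.0965). At 15 min, with 8.88, 8.64 and 8.92 in wild type and 9.28 and 9.22 in cub, Egr2 was higher in cub by 0.44 ± 0.10 (adjusted p = 0.0213), again 1 of 9, where 1.57% of all genes were higher. This call was lost without wild-type 15 min replicate 2 (0.35, adjusted p = 0.073) or cub 15 min replicate 3, which leaves 1 array there (0.47). It was also lost with only the arrays compared (0.44, adjusted p = 0.112) or with array weights (0.38, adjusted p = 0.0785). Egr3 had no array overlap at these times and missed the threshold, with 0.17 ± 0.08 at 0 h (adjusted p = 0.264) and 0.21 ± 0.09 at 15 min (adjusted p = 0.188). The mean level of the 5 Schwann cell markers measured, which bear on Egr2, was 8.08 in wild type and 8.09 in cub at 0 h, with 0 of 5 called. Other lists did move with genotype at these times. At 0 h 3 of 6 endothelial cell markers (median difference 0.37), 2 of 8 macrophage markers (0.39), and 1 each of the Langerhans and dendritic cell, keratinocyte and cartilage lists were higher in cub. At 15 min 5 of 5 hair follicle inner sheath markers (median 1.21), 1 of 8 keratinocyte and 1 of 8 neuron markers were. The part of these cells in the Egr2 difference was not tested. Egr2 was at −0.09 ± 0.09 at 2 h (adjusted p = 0.674) and 0.20 ± 0.09 at 24 h (adjusted p = 0.219).

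At 2 h and at 24 h Arc was the 1 of 9 genes called between genotypes, where 3.84% and 2.24% of all genes were higher in cub. For the others the intervals show what the arrays could resolve. Between cub and wild type at 2 h, Nr4a3 differed by 0.00 (95% interval −0.33 to 0.33), Nr4a2 by −0.10 (−0.39 to 0.19) and Nr4a1 by −0.28 (−0.87 to 0.31). Ier3 differed by 0.01 (−0.18 to 0.19) and Ier2 by −0.15 (−0.40 to 0.10). Egr1 was at −0.26 ± 0.14 (−0.56 to 0.03, adjusted p = 0.37), with all 3 cub arrays below all 3 wild-type arrays, and it was called when only the 6 arrays at 2 h were fitted (adjusted p = 0.0398). At 24 h Ier3 was at 0.21 (0.02 to 0.40, adjusted p = 0.197) and Nr4a1 at 0.43 (−0.16 to 1.03, adjusted p = 0.469). Single arrays moved both: Ier3 was at 0.09 without cub 24 h replicate 3, and Nr4a1 at 0.23 without that array, 0.24 without wild-type 24 h replicate 1, 0.65 without cub 24 h replicate 1 and 0.68 without wild-type 24 h replicate 3.

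**Figure D4:**
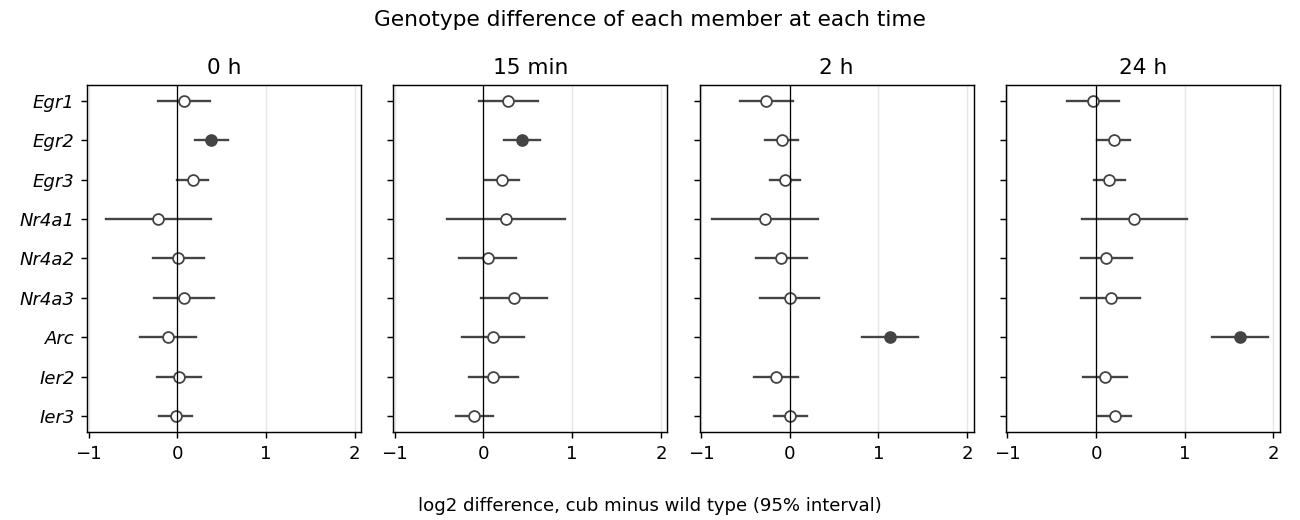
Log2 difference between cub and wild type (x axis, cub minus wild type, with 95% intervals from limma) of the 9 genes at 0 h, 15 min, 2 h and 24 h; filled points passed an adjusted p of 0.05. Filled points are Egr2 at 0 h (0.38) and 15 min (0.44) and Arc at 2 h (1.13) and 24 h (1.62).

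The 9 genes were set beside 38 other immediate early genes, listed from general knowledge with earlier results of these data known. At 2 h 33 of the 38 were higher than 0 h in wild type and 32 in cub, with 0 lower and medians of 1.00 and 0.79, where 3.98% and 7.66% of all genes were higher. In wild type the largest rises were those of the AP-1 and related factor genes Fosb (3.20 ± 0.34), Fosl1 (3.13 ± 0.14), Atf3 (3.12 ± 0.19) and Fos (3.08 ± 0.26), close in size to the NR4A rises. Egr4, the remaining EGR family gene, was at 0.11 ± 0.10 in wild type (adjusted p = 0.639) and −0.13 ± 0.10 in cub (adjusted p = 0.492). Npas4, a gene of neuronal activity, was at −0.01 ± 0.07 and −0.05 ± 0.07 (adjusted p = 0.972 and 0.774). At 15 min Fos was called in both genotypes (1.66 ± 0.26, adjusted p = 0.0205, and 2.15 ± 0.29, adjusted p = 0.00583), and Zfp36, which encodes an mRNA decay factor, in wild type (0.51 ± 0.09, adjusted p = 0.0438).

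At 24 h 25 of the 38 were higher and 5 lower in wild type, where 20.5% of all genes were higher and 22.4% lower. In cub 26 were higher and 5 lower, where 21.1% of all genes were higher and 24.9% lower. Ptgs2, which encodes cyclooxygenase-2, had risen by 4.10 ± 0.33 in wild type and 4.88 ± 0.33 in cub, followed in wild type by Fosl1 (2.46 ± 0.14), the ERK phosphatase gene Dusp6 (2.00 ± 0.13) and Nfil3 (1.47 ± 0.12). The 5 lower genes were Sik1, Per1, Klf4, Gem and Jund in each genotype, with Sik1 at −0.98 and −0.95. Between genotypes, 5 of the 38 were higher in cub at 0 h (Plk3, Per1, Trib1, Bhlhe40 and Maff, by 0.34 to 0.61), 1 at 15 min (Ccn1 by 0.62), 0 at 2 h and 5 at 24 h (Per1, Dusp1, Plk2, Bhlhe40 and Trib1, by 0.32 to 0.52). The shares of all genes higher in cub at these times were 3.33%, 1.57%, 3.84% and 2.24%. At 2 h 2 were higher and 2 lower at an unadjusted limma p under 0.05. None of the 38 had a called difference in wounding change at 15 min, 2 h or 24 h by limma. At an unadjusted p under 0.05 the change was larger in cub for 2, 0 and 4 of the 38 at these times, and smaller for 2, 9 and 2. For these unadjusted counts the share of all genes was not counted.

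**Figure D5:**
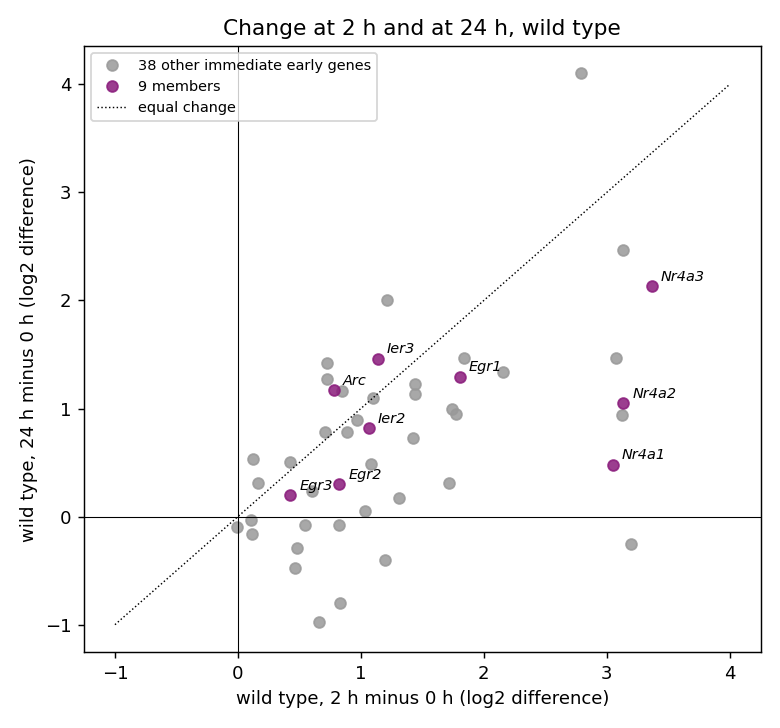
Log2 change from 0 h at 24 h (y axis) against that at 2 h (x axis) in wild type for the 9 genes (purple, labelled) and the 38 other immediate early genes (grey); both axes share the 0 h arrays, and the dotted line marks equal change. Arc (0.78 and 1.17) and Ier3 (1.14 and 1.46) lie above the line, and the other 7 lie below it, with Nr4a1 (3.05 and 0.48) farthest.

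Of 17 genes listed as regulators and partners of this class, 14 were tested and 3 were not analysed here. At 2 h Crem, a CREB family gene with an inducible repressor form, rose by 0.86 ± 0.09 in wild type and 0.90 ± 0.09 in cub. Srf rose by 0.35 ± 0.07 and 0.37 ± 0.07, and its coactivator gene Mrtfa by 0.27 ± 0.07 and 0.24 ± 0.07. Nab2, a corepressor of EGR factors that is itself an EGR target, rose in cub by 0.44 ± 0.09. That made 3 of 14 higher in wild type and 4 of 14 in cub, where 3.98% and 7.66% of all genes were higher. In each genotype 0 of 14 were lower at 2 h, where 4% of all genes in wild type and 4.28% in cub were. At 24 h 4 of 14 were higher and 3 lower in wild type, where 20.5% of all genes were higher and 22.4% lower, and 5 and 4 in cub, where 21.1% were higher and 24.9% lower. Among the lower ones were Rxra and Rxrb, whose products pair with Nr4a1 and Nr4a2 proteins (Rxra at −0.47 ± 0.07 in wild type and −0.69 ± 0.07 in cub). Between genotypes 1 of 14 was called, Elk3, higher in cub at 24 h by 0.29 ± 0.08 (adjusted p = 0.0282), where 2.24% of all genes were higher.

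The course over the 8 group means was most alike for Nr4a1 and Nr4a2 (Pearson r = 0.99), Egr1 and Ier2 (r = 0.98) and Egr2 and Egr3 (r = 0.968). Arc was nearest to Ier3 (r = 0.899) and farthest from Egr2 (r = 0.477). Among 1865 genes whose group means spanned at least 1, those most like Egr1 were Rgs1, Junb and Zfp36 (r = 0.982, 0.958 and 0.958). For Nr4a1 they were Apold1, Atf3 and Has1 (r = 0.990, 0.989 and 0.982). For Ier3 they were Sbno2, Ccl2 and Tnfaip2 (r = 0.998, 0.997 and 0.997). For Arc they were Stk17b, Bdkrb1 and Gpr65 (r = 0.981, 0.970 and 0.964). Bdkrb1, the inducible kinin receptor gene, averaged 7.02 in wild type and 7.36 in cub at 2 h and 7.44 and 8.49 at 24 h, and Gpr65, a proton-sensing receptor gene of leukocytes, 5.83 and 6.26 and then 6.30 and 6.72. These r values describe 8 points from the same arrays and carry no test.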

How the data were processed

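Per the submitters' processing notes, the deposited log2 values came from RMA, run by the authors in Affymetrix Expression Console 1.1. For the summarization level, annotation release and genome build, nothing was given in the sources used here. Of 35556 rows, 21789 had 1 gene symbol, 1621 several and 12146 none in the platform annotation; 21698 were matched by gene ID to the GRCm38.p6 gene table. For the 999 genes with over 1 row the highest-mean row was kept, leaving 19938 genes. limma 3.58.1 in R 4.3.3 fitted 1 mean for each of 8 groups over all 23 arrays (15 residual and 5.61 prior degrees of freedom). P values were two-sided, with Benjamini-Hochberg adjustment inside each of 17 comparisons, at 0.05. Errors on differences are standard errors. The authors' R/maanova test was not run. The code was tested on simulated data. The number of arrays limits the precision.

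All 9 genes are named whatever their values. Of the other immediate early genes and the regulators, the 4 largest called differences of a comparison and those counted are named. The 3 genes most like Egr1, Nr4a1, Arc and Ier3 are named, as are markers at the extremes of a list. Egr4 and Npas4 were named after their values were seen. The members and lists were chosen with earlier results of these data known. Alternatives covered array scaling, low values, rows, arrays fitted, replicate numbers, moderation, array weights, the adjustment and each array left out.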

Additional observations from a re-analysis of the deposited data

Results flagged for a closer look

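The wounding change of Arc differed between cub and wild type by a direct test of that difference in limma. At 2 h the cub change was the larger by 1.24 ± 0.21 (adjusted p = 0.0268), and at 24 h by 1.73 ± 0.21 (adjusted p = 0.000305). All 3 cub arrays were above all 3 wild-type arrays at each of these times. The 2 h call held under 12 of 22 alternative settings and the 24 h call under 22 of 22. Among the other 8 genes no such difference was called at any time, except that of Egr2 at 2 h with array weights (−0.46, adjusted p = 0.0358 by limma).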

How the results depend on the processing

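Of 153 differences (9 genes in 17 comparisons), 67 were called, 56 of them under every alternative tried and 11 not under some; 9 others were called under some, and no called difference changed sign. The number of the 9 genes called between genotypes was 1 at 0 h and 0 to 1 with an array left out. At 15 min it was 1, but 0 with only the arrays compared, 0 with array weights and 0 to 1 with an array left out. At 2 h it was 1, and 2 with only the arrays compared. Against 0 h at 15 min it was 0 in wild type, with 1 under array weights, 1 with both genotypes averaged and 0 to 1 with an array left out, and 0 in cub, with 1 when both were averaged and 0 to 1 with an array left out. For the difference in wounding change at 2 h it was 1, but 0 with every row tested, 0 with no moderation, 2 with array weights and 0 to 1 with an array left out. The cause was not tested. The replicate numbers did not pair the samples: deviations of 77 same-numbered pairs correlated at a median r of −0.0352, and 21 were over 0.1. With the replicate block, Arc differed between genotypes by 1.13 at 2 h and 1.62 at 24 h, and no call of the 9 genes changed in any comparison.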
